A study of Mus musculus with 5 samples.

Results

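The genes described here are 35 mouse genes that serve the removal of organelles from maturing red cells. They cover mitophagy, the general autophagy pathway, ubiquitin-dependent remodelling and the condensation and expulsion of the nucleus. They were taken from a list of gene symbols matched to the Ensembl identifiers of the deposited table, which holds 39179 genes, and all 35 had a row. All 35 also passed the filter on low counts, so none was lost among the 13000 genes tested. RNA was sequenced from erythroid cells of C57BL/6 fetal livers at 14.5 days post conception, sorted by flow cytometry on the surface marker TER119. The KO group (n = 2) had the genotype Csnk2bfl/fl Vav+/Cre, in which both alleles of Csnk2b are floxed; Csnk2b encodes CK2 beta, the regulatory subunit of casein kinase 2. The control group (n = 3) had the genotype Csnk2b+/+ Vav+/Cre, so every library carried the Cre transgene. The Vav1 promoter drives Cre mainly in blood-forming cells, and Csnk2b in other cells of these livers was not measured. The titles number the embryos and do not say whether a library was pooled, so the p-values measure only the spread between these samples.

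Late erythroblasts condense their chromatin, stop dividing and expel the nucleus, and the reticulocyte that remains digests its mitochondria and ribosomes. Mitochondria are enclosed by autophagosomes, whose membranes carry lipid-bound proteins of the ATG8 family, and are delivered to lysosomes. Receptors on the mitochondrial surface bind ATG8 proteins, and ubiquitin ligases mark ribosomal and other proteins for the proteasome.

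Totals were 13187094 and 14986630 counts in the KO libraries and 13543392 to 15366021 in the controls, and the 35 genes held 0.838% to 0.968% of them. Csnk2b stood at 112 and 95.6 CPM (the usual depth-scaled count unit, here after TMM scaling) in the KO libraries and at 169.5 to 186 CPM in the controls (log2 fold change -0.80 ± 0.09 SE, edgeR adjusted p = 0.00177). Which exons are floxed is not named, and the counts are of the whole gene. Control replicate 3 held 1142 counts of 4 Y-linked genes beside 547 CPM of Xist, the RNA of the inactive X chromosome. The other libraries held at most 2 Y-linked counts and 788 to 1030 CPM of Xist. Y-linked reads were thus near absent from both KO libraries, and the fit held no term for sex. No library is a copy of another: chi-square per degree of freedom was 17.7 between the KO libraries and 4.30 to 6.35 between controls. Against the controls it was 11.9 to 14.6 for KO replicate 1 and 25.0 to 25.7 for KO replicate 2. By this measure KO replicate 2 stood furthest from the other libraries. The correlation of log2 CPM was 0.991 between the KO libraries and 0.983 to 0.986 between KO and control libraries. The defining erythroid markers were present. Hbb-bs, a beta globin gene, was at 15460 CPM or more in each library, and Hba-a1, an alpha globin gene, at 8935 CPM or more. None of 13 erythroid identity genes passed the test, and their median log2 fold change was -0.099.

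The clearance genes were nearly all at similar levels in KO and control cells. Bnip3, a mitophagy receptor, rose 2.18-fold, and Xpo7, a nuclear exporter needed for chromatin condensation, fell to 0.719 of its control level. The remaining 33 genes did not pass edgeR's quasi-likelihood test at a Benjamini-Hochberg adjusted p of 0.05 over all genes tested. The count of 2 in 35 is 5.71%, beside 6.98% of all genes tested that were called in either direction. By direction, 1 member was higher (2.86%, beside 5.15% of all genes) and 1 lower (2.86%, beside 1.83% of all genes). The median log2 fold change of the 35 was 0.056, and that of all genes tested was 0.015. Of the 33 that did not pass, 30 had a 95% interval of the fold change that lay wholly inside 1.5-fold in either direction. The intervals of Alox15, Tfeb and Isg20 reached beyond it. In 13 members, or 37.1%, the KO libraries lay wholly on one side of all controls, beside 41.2% of all genes tested. It was above the controls in 8 members (22.9%, beside 21.9% of all genes) and below them in 5 (14.3%, beside 19.3% of all genes). Both calls depended on single libraries: without any 1 control neither Bnip3 (adjusted p 0.0582 to 0.149) nor Xpo7 (0.139 to 0.174) passed, and without KO replicate 2 they had adjusted p-values of 0.204 and 0.051. Which other members passed changed when a KO library was left out, as did the number of calls over all genes tested. Those fits assume the lone KO library to vary like the controls. Members that newly passed in them are not given as results.

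**Figure D1:**
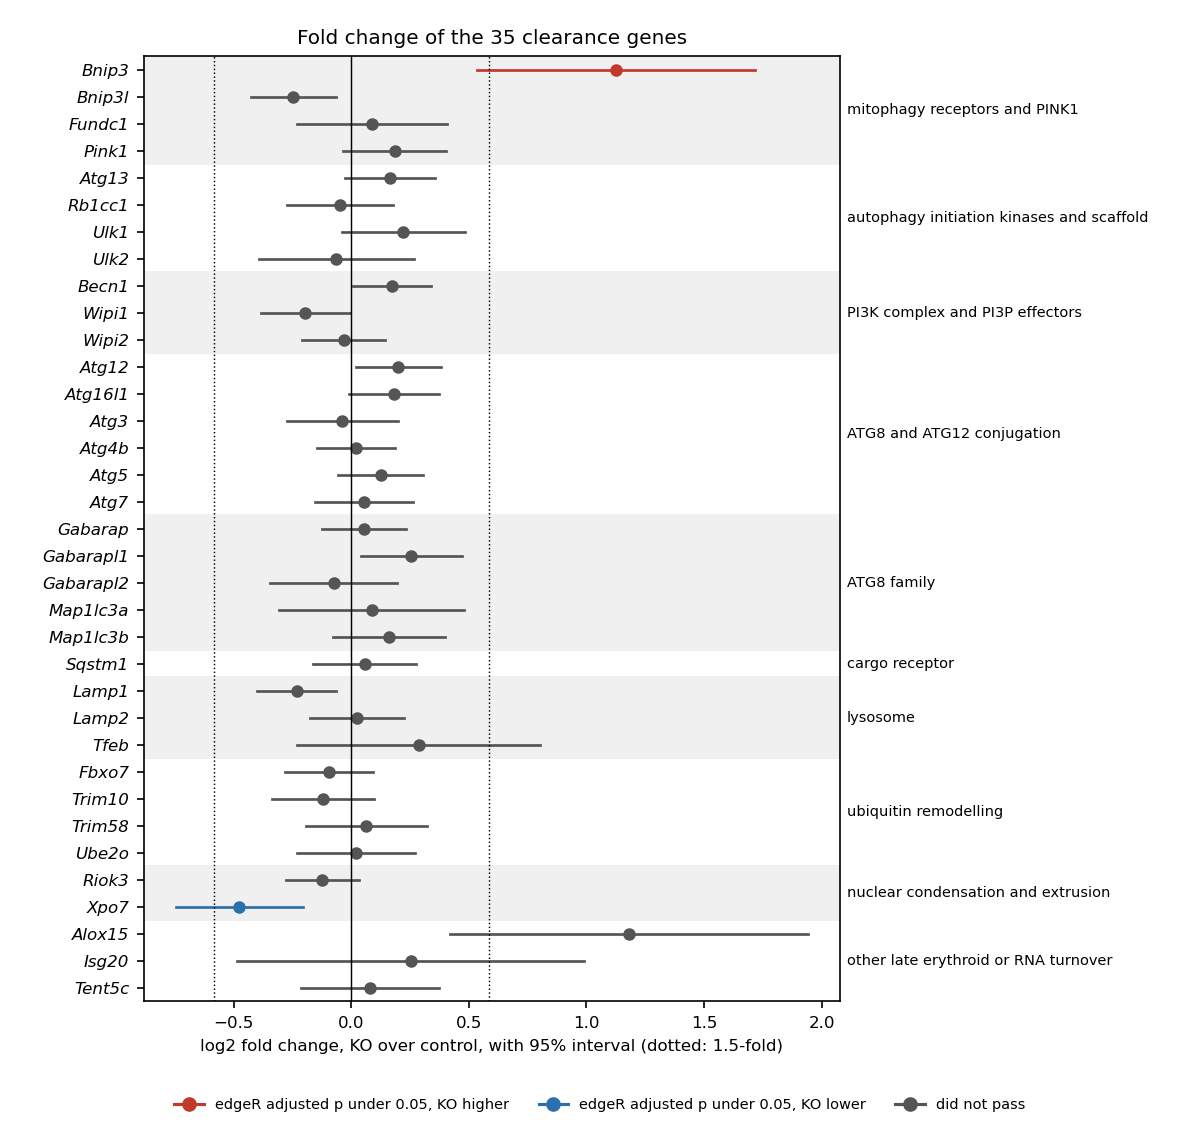
Log2 fold change, KO over control, of each of the 35 genes with its 95% interval from edgeR, grouped by role; dotted lines mark 1.5-fold. Bnip3 (red, higher in KO) and Xpo7 (blue, lower in KO) passed, and the intervals of Alox15, Tfeb and Isg20 are the 3 among the other genes that cross a dotted line.

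Of the mitophagy receptors and the kinase Pink1, 1 of 4 passed. Bnip3 encodes an outer mitochondrial membrane protein that binds ATG8 proteins and is known as a target of the hypoxia response. It was at 10.8 and 19.0 CPM in the KO libraries, from 141 and 293 reads, and at 5.86, 9.07 and 5.83 CPM in control replicates 1, 2 and 3, from 91, 119 and 84 reads. Both KO libraries lay above all controls, KO replicate 1 by little over control replicate 2. The edgeR adjusted p was 0.0353 at a log2 fold change of 1.13 ± 0.26 (SE), which ranged from 0.65 without KO replicate 2 to 1.44 without KO replicate 1. With no filter on low counts the adjusted p was 0.155. In bulk RNA a change in the number of cells of a type and a change in RNA per cell cannot be told apart. Exons of Bnip3 share 504 bp with Gm45507, an antisense gene not analysed here. No source used here says if reads were counted by strand, so reads of a gene and its antisense partner cannot be told apart.

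Bnip3 spans 138890836 to 138909519 of chromosome 7 (minus strand, GRCm38). Its proximal promoter is shown because Bnip3 was the member that rose. The 250 bases before the RefSeq transcription start (GRCm38.p6, chr7:138909507-138909756, minus strand, 5′ to 3′) hold 1 copy of CACGTG, in capitals, which begins 108 bases before the start.
Bnip3: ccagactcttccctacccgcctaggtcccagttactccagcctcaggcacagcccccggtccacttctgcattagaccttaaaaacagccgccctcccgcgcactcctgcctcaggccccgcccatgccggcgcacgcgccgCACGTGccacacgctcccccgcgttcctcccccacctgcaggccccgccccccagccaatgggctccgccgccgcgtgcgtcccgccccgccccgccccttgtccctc

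CACGTG is an E-box, the core of the CLEAR element that TFEB is known to bind. It contains ACGTG, a form of the core of the hypoxia response element, on both strands. Other forms of that core were not searched. RefSeq promoters were found for 25 of the 35 members. CACGTG stood in the promoters of 5 of these (20%), Bnip3, Atg3, Atg5, Atg7 and Lamp1, beside 6.86% of the 27025 genes with a promoter in the table. The full CLEAR palindrome, a longer motif around this E-box, stood in none of the 25, beside 0.27% of all genes. ACGTG or its reverse complement CACGT, which lie within every CACGTG, stood in 9 of the 25 (36%), beside 18.49% of all genes. These background shares include genes that were not tested for expression here, whereas all 25 members were. The shares among the genes tested were not computed. Of the 5 genes with the E-box, Bnip3 rose and the other 4 did not pass. The E-boxes of Lamp1 and Atg3 are shown for comparison, as 30 bases each with CACGTG in capitals, since both genes carry more than 1 copy and did not pass the test. They lie on the plus strands of chromosomes 8 and 16 (GRCm38.p6: chr8:13159088-13159117, chr8:13159104-13159133, chr8:13159121-13159150, chr16:45158723-45158752, chr16:45158746-45158775).
Lamp1, 61 bases before the start: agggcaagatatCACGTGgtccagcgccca
Lamp1, 45 bases before the start: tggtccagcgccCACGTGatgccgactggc
Lamp1, 28 bases before the start: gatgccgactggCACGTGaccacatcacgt
Atg3, 94 bases before the start: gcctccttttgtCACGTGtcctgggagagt
Atg3, 71 bases before the start: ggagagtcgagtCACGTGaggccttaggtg
Other motifs were searched on both strands in the same 250 bases. The GATA factor motif AGATAA stood in 2 of the 25 (Isg20 and Trim10). The AP-1 motif TGACTCA stood in 1 (Trim10). The CACCC box, searched as CCACACCC, stood in 1 (Ulk2). The core of the interferon-stimulated response element stood in 2 (Fbxo7 and Lamp1), and GTAAACA, a FOXO site, in none. Among all genes with a promoter, 11.43% held the GATA site, 5.16% the AP-1 site, 3.68% the CACCC box, 3.46% the interferon element and 3.54% the FOXO site.

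Bnip3l encodes NIX, the receptor that clears mitochondria from mouse reticulocytes. It was at 306 and 271 CPM in the KO libraries and at 346, 331 and 349 CPM in the controls. All KO values lay below all control values, and the log2 fold change of -0.25 ± 0.08 (SE) did not pass (edgeR adjusted p = 0.103). Without KO replicate 1 it was -0.36. A processed pseudogene, Bnip3l-ps, held 459 to 543 reads per library beside 3983 to 5383 for Bnip3l, and reads may be divided between them. Per kb of exon, Bnip3l stood 11.8-fold above Bnip3 in KO cells and 29.7-fold above it in control cells. The log2 ratio of Bnip3l over Bnip3 was 4.05 and 3.07 in the KO libraries and 5.12, 4.42 and 5.14 in the controls. The groups do not overlap, and the exact two-sided permutation p of 0.1 is the smallest that 2 against 3 libraries allow (adjusted p = 0.3 over 6 pairs). Fundc1, another hypoxia-linked receptor, had 8.61 and 9.07 CPM in the KO libraries and 7.47 to 9.27 CPM in the controls. Pink1, the kinase that marks damaged mitochondria, had 65.9 and 66.4 CPM in the KO libraries and 52.95 to 65.4 CPM in the controls, and did not pass (edgeR adjusted p = 0.283).

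**Figure D2:**
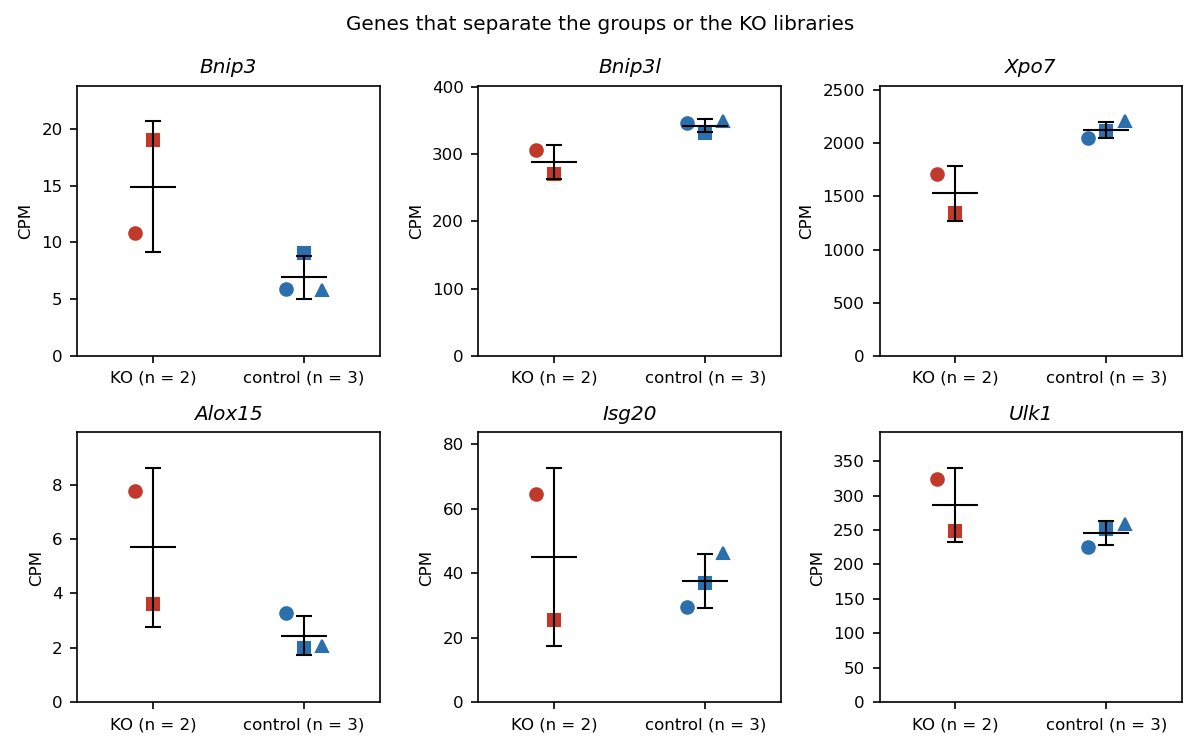
CPM per library of 6 members, KO on the left and control on the right, with circles, squares and triangles for replicates 1, 2 and 3 and black bars for the mean ± SD. Bnip3 is above and Xpo7 and Bnip3l below all controls in both KO libraries, while Isg20 and Ulk1 overlap the controls.

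The nuclear condensation and extrusion genes were Xpo7 and Riok3, both of which mouse erythroblasts need for enucleation. Xpo7, or exportin 7, carries nuclear proteins such as histones to the cytoplasm. It was at 1711 and 1342 CPM in the KO libraries and at 2051, 2117 and 2206 CPM in control replicates 1, 2 and 3. Both KO libraries lay below all controls, KO replicate 2 further than KO replicate 1. The mean was 1527 CPM ± 261 (SD, n = 2) in KO cells and 2125 CPM ± 77.9 (SD, n = 3) in control cells, a decrease of 28.2%. The edgeR adjusted p was 0.0466 at a log2 fold change of -0.48 ± 0.12 (SE), which lay between -0.69 and -0.32 in the fits that left out a library. The adjusted p was 0.0509 with RLE scaling and 0.0911 without the filter on low counts. Riok3, an atypical kinase, was at 235 and 234 CPM in the KO libraries and at 247 to 260 CPM in the controls, and its log2 fold change of -0.12 ± 0.07 (SE) did not pass (edgeR adjusted p = 0.31).

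Late erythroid genes were listed beside these. All 16 had a log2 fold change below 0, with a median log2 fold change of -0.242, and in 10 both KO libraries lay below all controls, as in 19.3% of all genes tested. Of these 16, 2 fell in the test, beside 1.83% of all genes, and the most abundant, Slc4a1, for the anion exchanger band 3, and Hbb-bt, a beta globin gene, had log2 fold changes of -0.12 and -0.04 (edgeR adjusted p = 0.655 and 0.888). Tspo2, a late erythroid membrane protein gene, was at 181 and 171 CPM in the KO libraries and at 254 to 288 CPM in the controls (log2 fold change -0.61, edgeR adjusted p = 0.00327). Cd36, a scavenger receptor gene, was at 20.4 and 17.8 CPM in the KO libraries and at 31.5 to 35.6 CPM in the controls (log2 fold change -0.79, edgeR adjusted p = 0.00356). Among 10 early erythroid genes 1 fell, Ikzf1, a lymphoid and erythroid transcription factor gene (log2 fold change -0.38, edgeR adjusted p = 0.0368), and their median was 0.074. Leaving out 1 control, or KO replicate 2, put Ikzf1 above the 0.05 threshold (edgeR adjusted p of 0.142 at most). Cpox, for a haem synthesis enzyme and the most abundant of that list, had a log2 fold change of 0.06. The part of these lists in the values of Xpo7 and Bnip3l was not tested.

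None of the 4 genes that start autophagy passed. Ulk1 encodes the initiating kinase, whose loss in mice delays clearance of mitochondria and ribosomes in reticulocytes. It was at 324.5 and 248 CPM in the KO libraries and at 226, 252 and 259 CPM in the controls. KO replicate 2 lay among the controls and KO replicate 1 above them, and the log2 fold change was 0.22 ± 0.12 (SE; edgeR adjusted p = 0.281). With KO replicate 1 left out it was -0.007. With KO replicate 2 left out it was 0.40. Ulk2, its close relative, had 12.3 and 9.91 CPM in the KO libraries and 10.2 to 12.4 CPM in the controls. Atg13 and Rb1cc1 encode scaffold subunits of the ULK1 complex, and their log2 fold changes were 0.16 and -0.05 (edgeR adjusted p = 0.279 and 0.81). The log2 ratio of Ulk1 over Ulk2 per kb was 4.60 and 4.53 in the KO libraries and 4.07, 4.51 and 4.31 in the controls (exact permutation p = 0.2, two-sided).

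Of the 3 genes of the lipid kinase step none passed. Becn1 encodes beclin 1, a subunit of the kinase complex that makes phosphatidylinositol 3-phosphate. It was at 275 and 254 CPM in the KO libraries and at 224, 240 and 239 CPM in the controls, with a log2 fold change of 0.18 ± 0.07 (SE; edgeR adjusted p = 0.188). Cntd1, on the opposite strand, shares 3104 bp of exon with Becn1 and held 23 to 42 reads per library. Wipi1 and Wipi2 bind that lipid on the growing membrane. Wipi1 was at 111 and 95.5 CPM in the KO libraries and at 115, 117 and 123 CPM in the controls (log2 fold change -0.19 ± 0.08 SE, edgeR adjusted p = 0.199). Wipi2 had a log2 fold change of -0.03 ± 0.08 (SE; edgeR adjusted p = 0.837). Becn1 was thus above all controls in both KO libraries and Wipi1 below them, and neither difference passed. In the fits that left out 1 library, the log2 fold change of Wipi1 ranged from -0.331 to -0.091.

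The enzymes that attach ATG8 proteins to lipid changed little. Of 6 genes none passed, and their log2 fold changes lay between -0.04 for Atg3 and 0.20 for Atg12. Atg12 and Atg5 are joined to each other by the E1-like enzyme ATG7, and the pair recruits ATG16L1 to the membrane. Atg12 was at 45.4 and 42.4 CPM in the KO libraries and at 40.0, 37.4 and 37.3 CPM in the controls (edgeR adjusted p = 0.174). Atg5 was at 36.2 and 37.5 CPM in the KO libraries and at 32.2 to 34.5 CPM in the controls (edgeR adjusted p = 0.377). Atg16l1 was at 76.1 and 88.9 CPM in the KO libraries and at 73.2, 71.1 and 74.2 CPM in the controls (edgeR adjusted p = 0.23). In these 3 genes both KO libraries lay above all controls, as in 21.9% of all genes tested. In the fits that left out 1 library, the log2 fold change of Atg16l1 ranged from 0.059 to 0.266. Atg7, Atg3, the E2-like enzyme of ATG8 proteins, and Atg4b, the protease that processes them, had log2 fold changes of 0.05, -0.04 and 0.02, and their KO values lay among the controls.

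Of the 5 ATG8 genes none passed either. Gabarapl1 was at 56.2 and 65.5 CPM in the KO libraries and at 52.9, 53.3 and 46.9 CPM in the controls. The KO libraries lay above the controls, with a log2 fold change of 0.26 ± 0.10 (SE; edgeR adjusted p = 0.144). It ranged from 0.134 to 0.338 in the fits that left out 1 library. 1700101I11Rik, on the opposite strand, shares 570 bp of exon with Gabarapl1 and held 6 to 8 reads per library. Gabarap, at 127 and 120 CPM in the KO libraries and 111 to 127 CPM in the controls, was the most abundant of the family per kb of exon, with 67.2 CPM per kb in KO cells and 64.8 in control cells. Gabarapl2 was at 13.8 and 12.1 CPM in the KO libraries and 12.9 to 14.2 CPM in the controls. Map1lc3b and Map1lc3a, for the LC3 proteins, had log2 fold changes of 0.16 and 0.09. The log2 ratio per kb of Map1lc3b over Map1lc3a was 1.70 ± 0.006 (SD, n = 2) in KO cells and 1.64 ± 0.24 (SD, n = 3) in control cells, with an exact permutation p of 0.7, and the groups overlapped. That of Gabarapl2 over Gabarap was -3.60 ± 0.08 in KO cells and -3.47 ± 0.10 in control cells (SD, n = 2 and 3, exact permutation p = 0.3).

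Sqstm1 encodes p62, which ties ubiquitin-marked cargo to ATG8 proteins. It was at 148 and 161 CPM in the KO libraries and at 139.5, 168 and 138.6 CPM in the controls, with overlapping groups (log2 fold change 0.06 ± 0.10 SE, edgeR adjusted p = 0.771). Mrnip, on the opposite strand, shares 580 bp of exon with it and held 117 to 162 reads per library. Of 3 lysosome genes none passed. Lamp1, for a main glycoprotein of the lysosomal membrane, was at 247 and 223 CPM in the KO libraries and at 269, 279 and 281 CPM in the controls. Grtp1, on the opposite strand, overlaps exons of Lamp1 and held 165 to 250 reads per library. Both KO libraries lay below all controls, and the Lamp1 log2 fold change of -0.23 ± 0.08 (SE) had an edgeR adjusted p of 0.101. In the fits that left out 1 library, the log2 fold change of Lamp1 ranged from -0.332 to -0.164. Lamp2, its relative in autophagosome fusion, had 48.6 and 42.3 CPM in the KO libraries and 42.8 to 46.2 CPM in the controls. The log2 ratio of Lamp1 over Lamp2 per kb was 4.18 and 4.24 in the KO libraries and 4.42, 4.54 and 4.44 in the controls. These groups do not overlap, and the exact two-sided permutation p was again 0.1, the smallest allowed (adjusted p = 0.3). Tfeb, the transcription factor of lysosome genes, had 44 and 78 reads in the KO libraries and 46, 43 and 61 in the controls, and the 95% interval of its log2 fold change ran from -0.23 to 0.80.

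None of the 4 ubiquitin remodelling genes passed, and Trim10 and Ube2o were among the 4 members above 1000 CPM in control cells. Ube2o, the hybrid ubiquitin enzyme that dismantles ribosomes in reticulocytes, was at 1131 and 964 CPM in the KO libraries and at 935, 1130 and 1032 CPM in the controls. The groups overlapped, with a log2 fold change of 0.02 ± 0.11 (SE; edgeR adjusted p = 0.933). Trim10, for a RING finger protein linked to terminal erythroid differentiation in mouse cells, was at 1390 and 1237 CPM in the KO libraries and at 1361, 1489 and 1435 CPM in the controls (edgeR adjusted p = 0.483). Trim58, a ligase that removes dynein before enucleation, was at 126 and 96.5 CPM in the KO libraries and at 100.0 to 114 CPM in the controls (edgeR adjusted p = 0.777). Fbxo7, a substrate receptor of SCF ligases, was at 186 and 163 CPM in the KO libraries and at 174 to 194 CPM in the controls (edgeR adjusted p = 0.531). The log2 ratio of Trim58 over Trim10 per kb was -3.43 and -3.65 in the KO libraries and -3.73, -3.80 and -3.62 in the controls (exact permutation p = 0.3, two-sided).

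The last 3 members differ in function. Alox15 encodes the lipoxygenase that oxidises organelle membranes in reticulocytes and is also made by macrophages and eosinophils. It was at 7.76 and 3.63 CPM in the KO libraries and at 3.28, 1.98 and 2.08 CPM in the controls, from 101 and 56 reads and from 51, 26 and 30 reads. Both KO libraries lay above all controls, KO replicate 2 by little. The log2 fold change of 1.18 ± 0.34 (SE) did not pass (edgeR adjusted p = 0.0702). It passed with DESeq2 (adjusted p = 0.0319) and without KO replicate 2, where the log2 fold change was 1.64 (adjusted p = 0.00701), and was 0.53 without KO replicate 1. Of 15 macrophage markers 5 fell (Adgre1, C1qc, Marco, Vcam1 and Cd5l), beside 1.83% of all genes tested. All 15 had a log2 fold change below 0, with a median of -0.65. In 12 both KO libraries lay below all controls, as in 19.3% of all genes tested. Adgre1, for the surface protein F4/80, was at 6.92 and 6.67 CPM in the KO libraries and at 10.6 to 11.2 CPM in the controls (edgeR adjusted p = 0.0157). The most abundant, Lyz2 and Csf1r, had log2 fold changes of -0.38 and -0.24 and did not pass. The summed level of the 15 was 215 and 171 CPM in the KO libraries and 246 to 284 CPM in the controls, with none at 0 in every library. The number that fell was 0 to 2 without any 1 control, and Adgre1 then had adjusted p-values of 0.0626 to 0.0721. Of 10 granulocyte and mast cell markers 8 were tested and none passed; their sum was 683 and 577 CPM in the KO libraries and 496 to 717 CPM in the controls, led by Mpo and S100a9. Ccr3, an eosinophil receptor gene chosen after its values were seen, had no read in 4 libraries and 0.0694 CPM in control replicate 3. Hepatocyte markers, led by Afp and Alb, summed to 278 and 329 CPM in the KO libraries and 236 to 374 CPM in the controls, and megakaryocyte markers, led by Vwf and Itga2b, to 112 and 142 CPM in the KO libraries and 99.0 to 107 CPM in the controls. None of these passed. The part of these cells in the Alox15 values was not tested.

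Isg20 encodes an exonuclease that interferon induces. It was at 64.6 and 25.5 CPM in the KO libraries and at 29.5, 37.0 and 46.4 CPM in the controls. KO replicate 1 lay above and KO replicate 2 below all controls. The log2 fold change of 0.25 ± 0.33 (SE; edgeR adjusted p = 0.685) became -0.58 without KO replicate 1 and 0.78 without KO replicate 2. The 12 interferon-stimulated genes listed beside it, which do not include Isg20, summed to 1682 and 571 CPM in the KO libraries and 97.3 to 129 CPM in the controls. All 11 that were tested rose, beside 5.15% of all genes tested. Among them were Ifi35, Irf7, Bst2, Rsad2, Oasl2, Isg15, Usp18, Ifit1, Oas1a and Xaf1. KO replicate 2 was above the controls in all 11, whereas its Isg20 level was not. Xaf1, at 0.381 to 0.579 CPM in the controls, passed the filter on low counts only through its KO libraries. Ifit3, at 0.450 to 0.769 CPM over all libraries, was not tested. The list was chosen with earlier results of these libraries known, so its direction is not independent evidence. Tent5c, which encodes a poly(A) polymerase abundant in erythroid cells, was at 2201 and 1676 CPM in the KO libraries and at 1685, 1868 and 1944 CPM in the controls (edgeR adjusted p = 0.748).

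The KO libraries differed from each other in many members. In 26 of the 35 the level was higher in KO replicate 1, with a median log2 ratio of KO replicate 1 over KO replicate 2 of 0.168. The difference exceeded 1.5-fold for Bnip3, higher in KO replicate 2, and for Alox15 and Isg20, higher in KO replicate 1. The same 3 genes also spanned more than 1.5-fold among the controls. The median over the members of the deviation from the control mean was 0.095 in KO replicate 1 and -0.050 in KO replicate 2, beside -0.064 to 0.030 in the controls. With KO replicate 2 left out the median log2 fold change of the 35 was 0.088, and with KO replicate 1 left out it was -0.077.

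**Figure D3:**
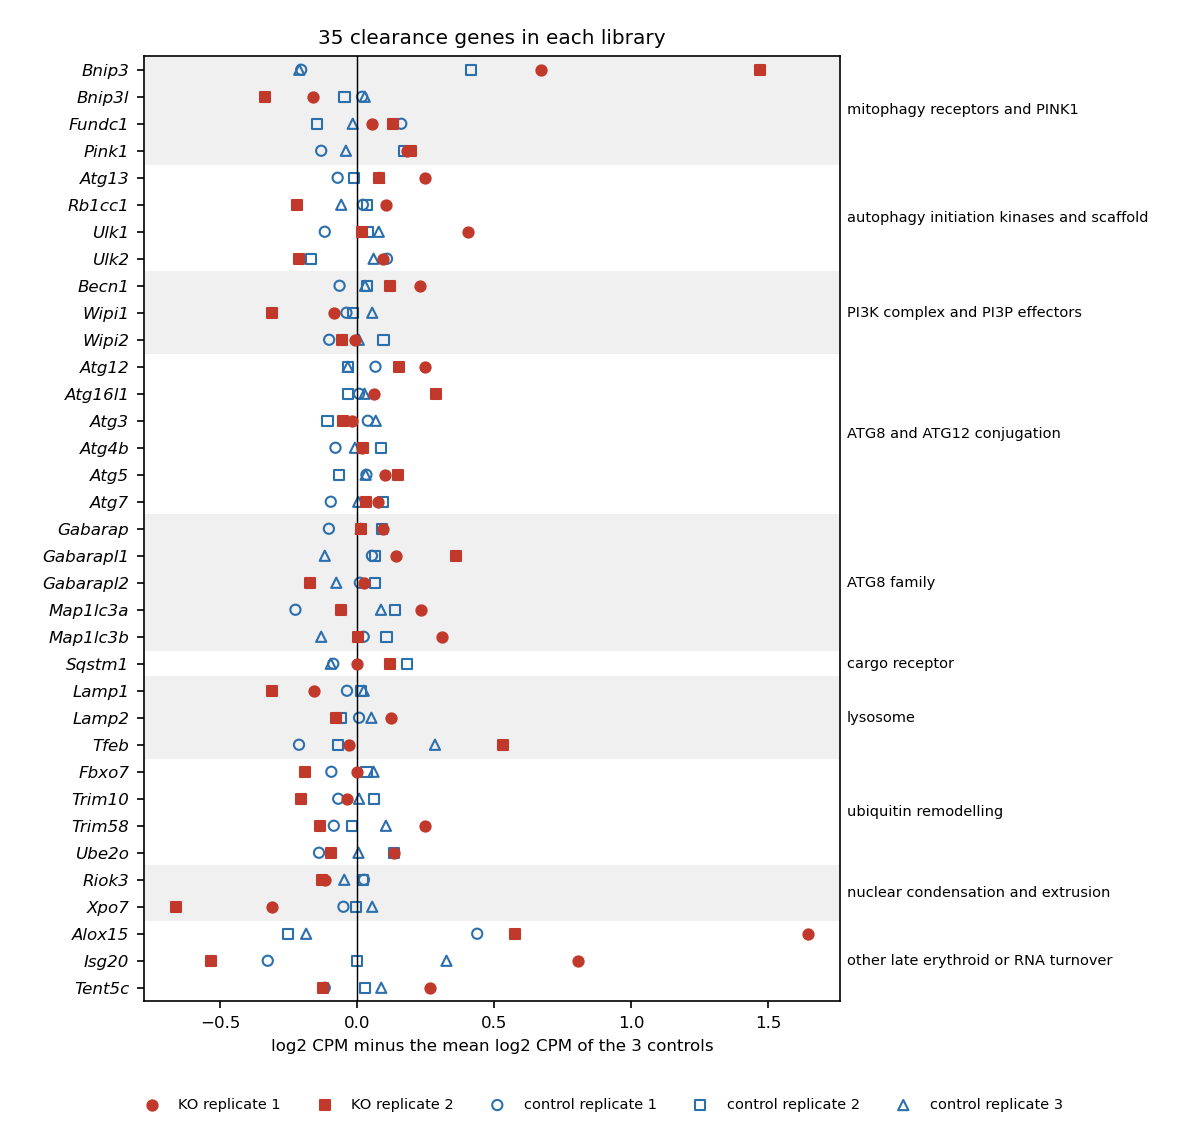
Log2 CPM of each member in each library, minus the mean of the 3 controls, with KO libraries filled in red and controls open in blue. Most KO values lie among or next to the controls; Bnip3 and Alox15 have 1 KO library far to the right and the other close to the highest control, Xpo7 has both to the left, and Isg20 has its KO libraries on either side of the controls.

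Per kb of annotated exon, the members spanned the 14.7th to the 99.7th percentile of the genes tested in control cells. Trim10 was at 585 CPM per kb ± 48.3 in KO cells and 636 ± 28.7 in control cells (SD, n = 2 and 3), the highest of the members. Tent5c followed at 318 ± 60.9 in KO cells and 300.5 ± 21.9 in control cells, and Ube2o at 198 ± 22.3 and 195 ± 18.4 CPM per kb. Xpo7 was at 80.3 ± 13.8 CPM per kb in KO cells and 112 ± 4.10 in control cells. Bnip3l, the abundant mitophagy receptor, was at the 96.1st percentile in control cells, Bnip3 at the 38th, Alox15 at the 20.5th and Tfeb at the 14.7th. The 4 genes above 1000 CPM in control cells, Ube2o, Trim10, Xpo7 and Tent5c, made up 67.8% of the members' summed CPM there. The order depends on the length used. With the longest coding transcript in place of all exons Riok3 moved from rank 15 to 8 and Map1lc3b from 20 to 13, while the first 7 ranks stayed as they were.

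**Figure D4:**
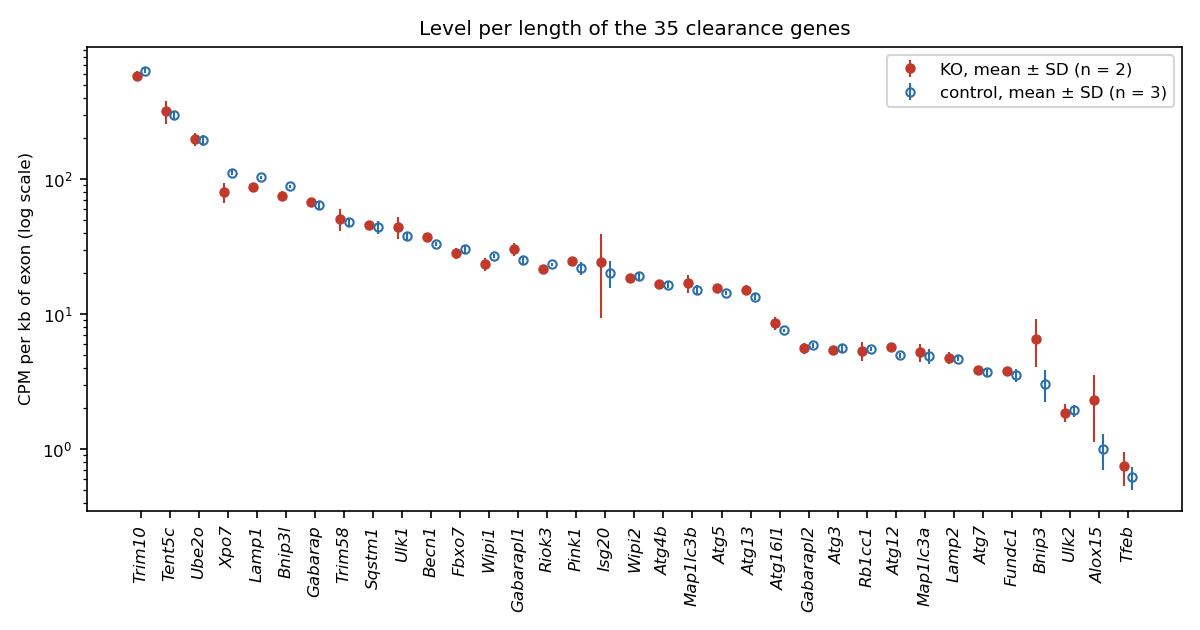
CPM per kb of exon on a log axis, mean ± SD, for KO (filled red) and control (open blue), in the order of the control mean. Trim10, Tent5c and Ube2o are highest and Tfeb lowest, and Bnip3 and Xpo7 show the KO and control means apart.

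Another 150 genes of the same pathways were tested in 6 lists. Among them 7 rose and 3 fell, or 6.67%, beside 6.98% of all genes tested, and their median log2 fold change was 0.00. Of 31 other core autophagy genes, 1 rose and 2 fell. Trp53inp1, a p53 target gene whose product promotes autophagy, was at 24.8 and 12.7 CPM in the KO libraries and at 8.69 to 9.64 CPM in the controls (a 2.01-fold rise, edgeR adjusted p = 0.0396). Atg4a, for a relative of the ATG4B protease, was at 35.1 and 30.4 CPM in the KO libraries and at 42.1 to 43.5 CPM in the controls (log2 fold change -0.39 ± 0.09 SE, edgeR adjusted p = 0.0321). Stx17, for the syntaxin that fuses autophagosomes with lysosomes, was at 59.5 and 54.1 CPM in the KO libraries and at 69.4 to 74.6 CPM in the controls (log2 fold change -0.35 ± 0.08 SE, edgeR adjusted p = 0.0312).

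Of 21 other mitophagy genes and cargo receptors tested, 1 rose and none fell. Fkbp8, for a mitochondrial immunophilin that can act as a mitophagy receptor, was at 335 and 437.5 CPM in the KO libraries and at 221, 267 and 291 CPM in the controls (log2 fold change 0.58 ± 0.14 SE, edgeR adjusted p = 0.0392). Of 28 other lysosome genes 2 rose: Npc2, for a cholesterol carrier (log2 fold change 0.47 ± 0.10 SE, edgeR adjusted p = 0.0275), and Gusb, for beta-glucuronidase (0.39 ± 0.10 SE, edgeR adjusted p = 0.0478). Of 25 other ubiquitin and proteasome genes none passed in edgeR. The most abundant were Wdr26, a subunit gene of the CTLH ubiquitin ligase, with a log2 fold change of -0.35 ± 0.10 (SE; edgeR adjusted p = 0.0679, DESeq2 adjusted p = 0.0044), and Ranbp10, at -0.02 ± 0.12 (SE). Of 24 other enucleation and cytoskeleton genes 1 rose and 1 fell. Hdac6, for a cytoplasmic deacetylase, was at 62.3 and 59.9 CPM in the KO libraries and at 41.6, 42.6 and 42.7 CPM in the controls (log2 fold change 0.53 ± 0.07 SE, edgeR adjusted p = 0.00384).

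Of 21 upstream kinases and transcription factors tested, 2 rose, beside 5.15% of all genes tested. Ddit4, or REDD1, was at 3.38 and 7.52 CPM in the KO libraries and at 0.643, 0.610 and 0.901 CPM in the controls. The rise was 7.61-fold (log2 fold change 2.93 ± 0.38 SE, edgeR adjusted p = 0.00318). At 13.0 to 15.5 counts per CPM its control levels lie near the floor, so the size of the rise is uncertain. Ddit4 passed the filter on low counts only through its KO libraries. Sesn2, a sestrin gene of amino acid sensing, was at 45.3 and 47.7 CPM in the KO libraries and at 27.0, 33.0 and 32.1 CPM in the controls, a 1.52-fold rise (edgeR adjusted p = 0.00961). Hdac6, Ddit4 and Sesn2 passed whichever control was left out. Leaving out 1 library gave log2 fold changes of 0.48 to 0.553 for Hdac6, 2.214 to 3.348 for Ddit4 and 0.514 to 0.653 for Sesn2. With no filter on low counts Hdac6 and Ddit4 passed and Sesn2 did not (edgeR adjusted p = 0.058). Of the other 7 called genes of these lists, 6 are named here, and each missed the threshold when single libraries were left out: Trp53inp1 when a control or KO replicate 1 was missing (highest adjusted p 0.152), and Atg4a, Stx17, Fkbp8, Npc2 and Gusb when a control or KO replicate 2 was missing (highest 0.178). Whichever control was left out, 3 of the 150 genes rose and none fell. Calls over all genes dropped too, from 907 to 241 (210 higher, 31 lower) without control replicate 2.

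**Figure D5:**
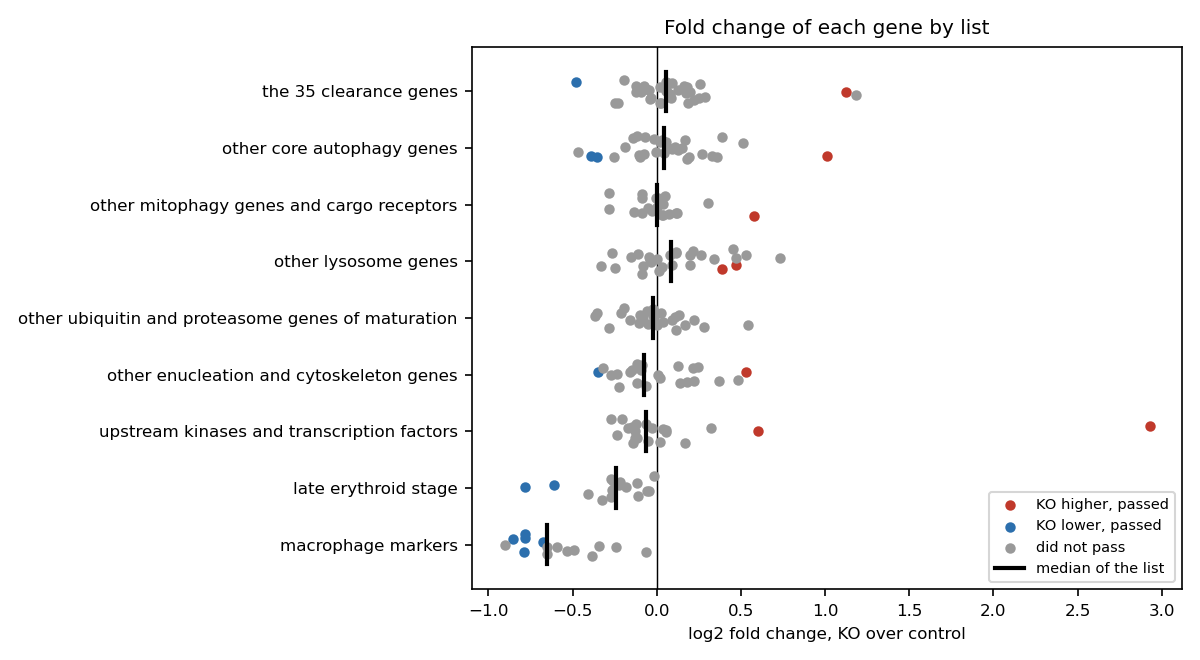
Log2 fold change, KO over control, of each tested gene by list, with the list's median as a black bar; red and blue mark genes that passed as higher and lower in KO. The members and the 6 pathway lists have medians between -0.077 and 0.084, the late erythroid list -0.242 and the macrophage markers -0.65.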

How the data were processed

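The authors deposited whole-number counts per Ensembl gene for each library, not normalised. Per the labels' protocols, poly(A) RNA was selected, and libraries (Ion Total RNA-Seq chemistry) were sequenced by Ion Proton. Cutadapt, STAR, Bowtie, HTSeq and mm10 are named in the submitters' processing notes, and no source used here gives versions or strand settings. Symbols, positions and exon lengths came from GENCODE M21 (GRCm38), which matched 37607 of 39179 identifiers, and promoters from RefSeq (GRCm38.p6).

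Counts were tested with edgeR 4.0.16 in R 4.3.3 (TMM factors 0.97 to 1.03, filterByExpr, design with group only, 3 residual degrees of freedom, Benjamini-Hochberg over 13000 genes). CPM is scaled to the TMM-adjusted library size, and 1 CPM is 13.0 to 15.5 counts. Standard errors and 95% intervals follow from the fold change and F statistic. On counts simulated from these 13000 genes the same steps recovered 50.7% of genes changed by 0.5 and 81.3% of those changed by 1 on the log2 scale, and 6.42% of calls were false. Each simulation changed 200 genes and gave KO and control libraries the same spread, so these rates may not hold for the KO libraries here. Reads carry no molecular identifiers. Alternatives were RLE scaling, no globin genes, other filters, DESeq2 1.42.0, limma-voom (limma 3.58.1), the replicate block, leaving out each library, and, chosen after seeing the data, another gene length.

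All 35 members are named. Of each other pathway list, up to 3 called genes per direction were named by smallest p, or the 2 most abundant where none passed; of each marker list, the 2 most abundant and any called. Ccr3 was added after its values were seen. Some genes that this rule names are not reported here. Members and lists were chosen with earlier results of these data known.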

Additional observations from a re-analysis of the deposited data

How the results depend on the processing

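With all genes kept whatever their count, 288 were called (235 higher, 53 lower), 0 and 0 members, 2 and 0 genes of the pathway lists (higher and lower) and 3 macrophage markers. With RLE scaling 0 members were called lower. With DESeq2 2 members were higher (Bnip3 and Alox15), 9 pathway genes lower and 4 late erythroid genes lower. The titles do not say whether the same replicate numbers mark paired embryos. Deviations from the group means correlated at 0.002 and 0.042 between same-numbered libraries. With 2 KO libraries these deviations are equal and opposite, so the correlations cannot exclude a weak pairing. With the replicate block 2 members were higher (Bnip3, and Alox15 with an adjusted p of 0.00948), 0 lower (Xpo7 adjusted p = 0.229) and 1 pathway gene lower. Leaving out each library in turn gave 241 to 2956 calls over all genes (210 to 1709 higher, 31 to 1247 lower), 0 to 3 members higher and 0 to 4 lower, 3 to 16 pathway genes higher and 0 to 22 lower, 2 to 11 late erythroid genes lower, 0 to 8 macrophage markers lower and 9 to 11 interferon genes higher. The members' median ranged from -0.077 to 0.093. The 2956 calls came without KO replicate 1, and the 241 without control replicate 2; the cause of these shifts was not tested. Csnk2b passed in every alternative, from -0.939 to -0.698.

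Of 418 values of members under 12 alternatives, 376 kept direction and call, 12 lost a call, 10 gained one and 20 changed sign. Those sign changes were all in fits without 1 library and in genes that had not passed. Log2 fold changes then ranged from -0.007 to 0.399 for Ulk1, -0.244 to 0.083 for Ulk2, -0.241 to 0.101 for Rb1cc1, -0.12 to 0.127 for Ube2o, -0.161 to 0.242 for Trim58, -0.084 to 0.229 for Map1lc3a, -0.022 to 0.301 for Map1lc3b, -0.009 to 0.098 for Gabarap, -0.197 to 0.019 for Gabarapl2, -0.021 to 0.062 for Atg4b, -0.009 to 0.152 for Sqstm1, -0.083 to 0.016 for Wipi2, -0.047 to 0.514 for Tfeb, -0.1 to 0.119 for Lamp2, -0.15 to 0.261 for Tent5c and -0.578 to 0.78 for Isg20. Ranbp10, of the ubiquitin list, ranged from -0.261 to 0.16. Depth limits Tfeb and Alox15 most, which rest on 26 to 101 reads.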
